A study of Rattus norvegicus with 24 samples.

Results

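The addition of a miR-222-3p mimic on top of a miR-455-3p mimic was examined in heart muscle cells exposed to doxorubicin. The comparison uses 6 of the 24 libraries of the study: the 3 libraries labelled doxorubicin with both mimics were set against the 3 labelled doxorubicin with the miR-455 mimic, across the 14303 of 21767 gene symbols that passed a filter on low counts. The cells were cultured ventricular myocytes from newborn Sprague-Dawley rats. The mimics were transfected at 5 nM each, so that the wells with both received 5 nM of each, and the sources do not say whether the single-mimic wells were topped up to the same total. Doxorubicin followed after 48 h and RNA was taken 24 h later. Its dose is not settled: 4 uM stands in the sample protocol, but 4 mM in the description of the series. A group with the miR-222-3p mimic and one with a negative control mimic, also under doxorubicin, and the same 4 mimic groups without it (a control treatment in the sample labels, vehicle in the series text) held 3 libraries each and served as further backgrounds. All 8 groups were transfected, and no untransfected cells were used here. The labels do not say whether replicates came from separate cultures or animals. The p-values reflect no more than the spread among the 3 libraries within each of the 8 groups, estimated jointly. That spread may be technical.

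A microRNA guides the silencing complex to messenger RNAs that pair with its seed, the bases near its 5′ end, and the bound messages are repressed and often degraded. miR-222 is transcribed together with miR-221, and the pair is known for repressing the cell cycle inhibitor Cdkn1b and the receptor kinase Kit. In rodent heart muscle, miR-222 has been linked to growth after exercise, with Cdkn1b, the kinases Hipk1 and Hipk2 and the factor Hmbox1 among its reported targets. miR-455 is encoded within the collagen gene Col27a1. Doxorubicin is an anthracycline that damages DNA and is known for its toxicity to the heart.

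The mature sequences below, from RefSeq (assembly GRCr8), are shown because the mimics are named for them; the sequences of the mimics themselves are not given in the sources. The seed, bases 2 to 8 from the 5′ end, is in capitals, and miR-221-3p is added because it carries the seed of miR-222-3p.
rno-miR-222-3p: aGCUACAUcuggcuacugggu
rno-miR-221-3p: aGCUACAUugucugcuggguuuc
rno-miR-455-3p: gCAGUCCAcgggcauauacacu
The rat copies lie on the plus strand at chrX:6022682-6022702 for miR-222-3p, chrX:6023246-6023268 for miR-221-3p and chr5:81704881-81704902 for miR-455-3p. Of 693 mature rat miRNAs in the table, 2 carried the miR-222-3p seed and 1 carried that of miR-455-3p. The 2 seeds differ, so a message would need a separate site to pair with each.

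The 6 libraries held 19619551 to 25750311 counts each. Those with miR-455 alone were far closer to each other than those with both mimics: comparing the counts of pairs of libraries gave a chi-square of 125 to 355 per degree of freedom with both mimics and of 7.81 to 9.79 with miR-455. By the same measure, replicate 1 with both mimics lay 81.9 to 90.0 from the miR-455 libraries. From replicates 2 and 3 of its own group it lay 355 and 125, so it was closer to the miR-455 libraries. Replicate 2 with both mimics stood apart. Genes with at least 10 counts numbered 13322, 12289 and 12720 with both mimics, against 13317, 13324 and 13216 with miR-455, and mitochondrially encoded transcripts took 13.1%, 21.3% and 20.2% of counts, against 14.8%, 15.4% and 13.7%. CPM are counts per library scaled to a common total. The values of single genes include TMM factors, while the marker sums here and below leave them out, so the scales differ. The summed level of 8 cardiomyocyte markers was 21594, 51781 and 19215 CPM with both mimics, against 27361, 26356 and 25459 CPM with miR-455. The 10 fibroblast markers summed to 24475, 13017 and 16912 CPM, against 25651, 24234 and 25924 CPM, while endothelial and macrophage markers stayed at 52.0 CPM or less in every library. The labelled cell type was therefore present in all 6 libraries together with fibroblast RNA, and in bulk samples fewer cells of a type and less RNA per cell cannot be told apart.

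Adding miR-222 under doxorubicin was accompanied by higher levels of 222 genes (1.55% of those tested) and lower levels of 133 genes (0.930%), by edgeR's quasi-likelihood F test with a Benjamini-Hochberg adjusted p under 0.05. In all, 355 genes (2.48%) were called, and the change was larger than 2-fold in 179 of the higher and 105 of the lower ones. The lower genes included the cyclin Ccnd1, the adiponectin receptor Adipor1, both reported kinase targets Hipk1 and Hipk2, and secreted or matrix proteins such as Dkk3, Serpinf1 and Col8a1. Among the higher genes were the muscle growth inhibitor Mstn, the insulin-like growth factor binding protein Igfbp5, both subunits of the nitric oxide receptor Gucy1a1 and Gucy1b1, and the iron exporter Slc40a1. The natriuretic peptides Nppa and Nppb, which heart muscle cells make under load, were lower. The median log2 fold change over all genes was -0.06.

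Replicate 2 with both mimics lay farthest from the miR-455 mean in 160 of the 222 higher genes and 86 of the 133 lower genes. Its median log2 difference over the higher genes was 1.67, against 0.92 for replicate 1 and 1.23 for replicate 3. For the lower genes these medians were -1.70 for replicate 2, -1.17 for replicate 1 and -1.33 for replicate 3. The genes were called from these same libraries, so the shared direction follows from the selection. The libraries of the 2 groups did not overlap for 220 of the higher and all 133 lower genes, which is to be read against 14.0% and 19.8% of all genes tested. Without replicate 2 with both mimics 158 genes were called, of which 133 belonged to the 355, and without replicate 3 there were 196. Without replicate 1 of that group 1039 were called, and leaving out miR-455 replicate 1, 2 or 3 gave 118, 108 and 108. Of 78 called genes looked at singly, most named by the rule and others added after their values were seen, 23 stayed called under all 15 alternatives, 16 of 45 lower and 7 of 33 higher. Leaving out 1 library ended the call for 30, 33 and 30 of the 78 in the case of miR-455 replicates 1, 2 and 3, and for 2, 30 and 22 in the case of replicates 1, 2 and 3 of both mimics.

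**Figure D1:**
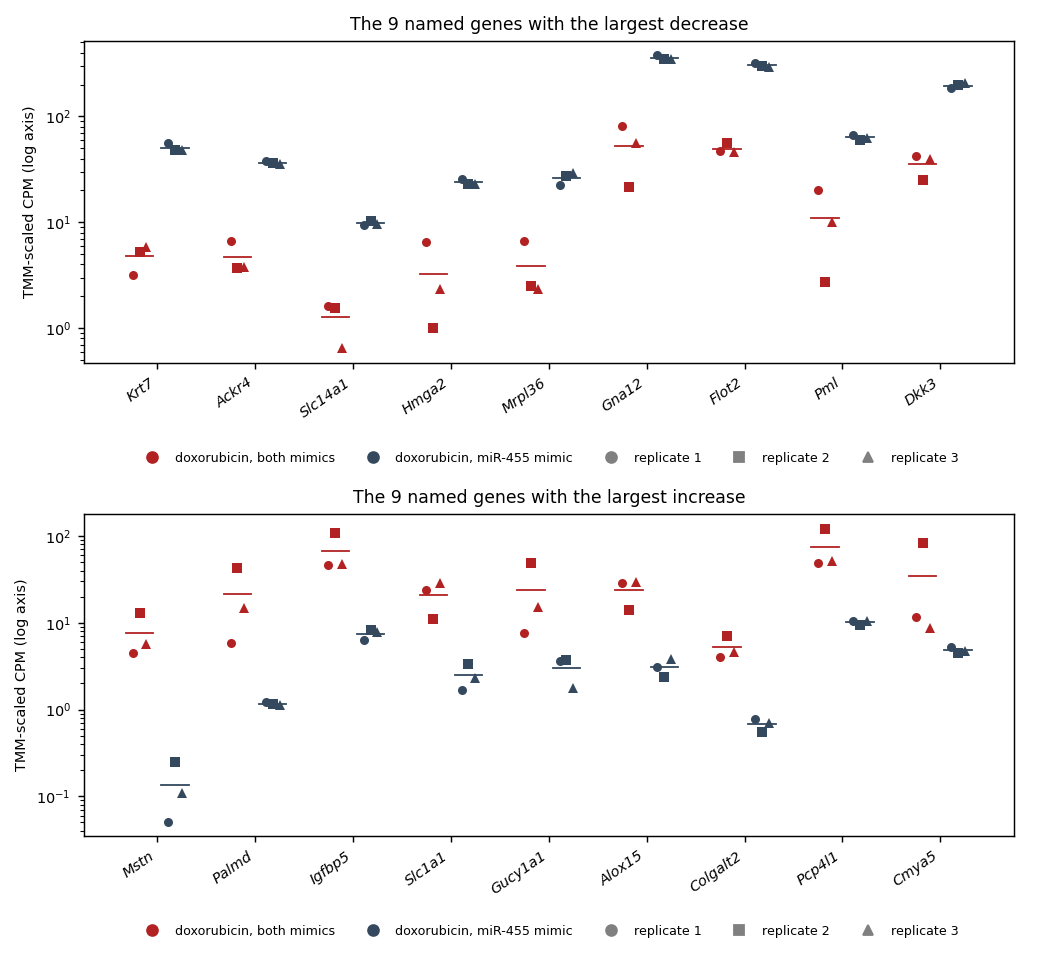
TMM-scaled CPM on a log axis for the 9 genes with the largest decrease (top) and the 9 with the largest increase (bottom) under the naming rule, in the 3 libraries with both mimics (red) and the 3 with the miR-455 mimic (dark), all with doxorubicin; marks show replicates and lines the means. The miR-455 libraries lie close together for most genes, and replicate 2 with both mimics (square) is the highest red mark for Palmd, Cmya5 and Gucy1a1 and the lowest for Hmga2, Pml and Gna12.

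Among called genes with an assigned symbol, separate groups of libraries and a mean of at least 5 CPM in whichever of them was higher, the largest decrease belonged to Krt7, a keratin of simple epithelia. It had 3.16, 5.23 and 5.86 CPM with both mimics, against 56.0, 47.9 and 48.4 CPM with miR-455, and was 10.7-fold lower (log2 fold change -3.42 ± 0.48, where ± is the SE here and in later brackets, n = 3 each; edgeR adjusted p = 0.000469). Ackr4, an atypical receptor that scavenges chemokines, had 6.58, 3.67 and 3.75 CPM, against 37.7, 36.6 and 35.6 CPM, and was 7.82-fold lower (edgeR adjusted p = 0.000141). That the libraries of the groups were separate for both genes was a condition of the choice. Gna12, a G protein alpha subunit, fell to 80.4, 21.4 and 56.6 CPM, against 377, 349.9 and 346 CPM (-2.76 ± 0.34). Flot2, a scaffold protein of membrane microdomains, had 46.7, 56.4 and 46.0 CPM, against 317, 298 and 295 CPM (-2.61 ± 0.37). Krt7, Ackr4 and Flot2 stayed called under all 15 alternatives, and Gna12 under 14.

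Dkk3, a secreted member of the Dickkopf family, had 42.5, 24.9 and 40.0 CPM with both mimics, against 186, 196 and 205 CPM with miR-455, a 5.46-fold decrease (edgeR adjusted p = 5.99e-05). Mrpl36, a protein of the mitochondrial ribosome, had 6.71, 2.49 and 2.34 CPM, against 22.6, 27.4 and 29.0 CPM (-2.76 ± 0.38). Dusp6, a phosphatase that switches off the kinase ERK, had 38.3, 11.9 and 26.3 CPM, against 117, 117 and 127 CPM (-2.24 ± 0.42). The Dusp6 values were lowest in replicate 2, and the gene stayed called without that library (-1.90, edgeR adjusted p = 0.0345). Slc14a1, a urea transporter, had 1.62, 1.56 and 0.644 CPM, against 9.45, 10.2 and 9.63 CPM (-2.93 ± 0.55). Pml, the scaffold of PML nuclear bodies, averaged 10.9 ± 8.67 CPM, against 63.2 ± 3.41 CPM (SD, n = 3 each; log2 fold change -2.53 ± 0.53), and was lowest in replicate 2; it was not called without replicate 3 (edgeR adjusted p = 0.0580).

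Hmga2, an architectural chromatin protein of growing tissue, had 6.50, 0.995 and 2.34 CPM, against 25.6, 23.1 and 23.2 CPM (-2.86 ± 0.71). Lef1, a transcription factor of the Wnt pathway, had 1.15, 1.31 and 2.34 CPM, against 7.24, 6.98 and 8.32 CPM (-2.23 ± 0.56). The naming rule took only genes whose libraries did not overlap between the groups, so the separation of both genes follows from the choice. Without replicate 2 with both mimics their edgeR adjusted p-values were 0.178 for Hmga2 and 0.170 for Lef1, so neither passed.

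Reported targets of miR-222 had mostly negative log2 fold changes, but few passed the test. Of 28 list members, all of which were tested, 3 were lower and none higher, 10.7% against 2.48% of all genes. The median log2 fold change was -0.42, with 22 members negative and 6 positive, while over all genes 7591 were negative and 6712 positive. Adipor1, the receptor for the fat hormone adiponectin, had 40.4, 38.1 and 28.8 CPM with both mimics, against 176, 167 and 154 CPM with miR-455, and was 4.63-fold lower (edgeR adjusted p = 0.00119). Hipk2 and Hipk1 are nuclear kinases. Hipk2 had 4.79, 1.80 and 5.10 CPM, against 14.8, 10.4 and 13.7 CPM (-1.73 ± 0.32), and Hipk1 63.3, 67.2 and 65.4 CPM, against 115, 106 and 116 CPM (-0.78 ± 0.15). All 3 stayed called without replicate 2 with both mimics. With miR-222 against the control mimic under doxorubicin, 5 of the 28 were lower and none higher (all genes 2.36% and 1.59%). Without doxorubicin, 7 were lower and 4 higher against the control mimic (all genes 4.47% and 4.50%). On top of miR-455 without doxorubicin, 3 were lower and none higher (all genes 0.433% and 0.315%).

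Several of the best known targets did not pass. Cdkn1b, the inhibitor of cyclin-dependent kinases for which miR-222 is best known, had 13.1, 20.8 and 13.4 CPM, against 26.6, 27.6 and 24.7 CPM (-0.74 ± 0.33, edgeR adjusted p = 0.253). The libraries of the 2 groups did not overlap for Cdkn1b, as for 14 of the 28 members in the lower direction, against 19.8% of all genes. Hmbox1, a homeobox factor, had 2.18, 1.12 and 2.23 CPM, against 3.75, 2.59 and 2.77 CPM (-0.72 ± 0.46). Ets1, a transcription factor, had 33.9, 36.3 and 41.6 CPM, against 47.6, 48.2 and 54.2 CPM (-0.42 ± 0.25), and Foxo3, a forkhead factor of stress and atrophy, 26.9, 9.27 and 17.9 CPM, against 35.1, 32.6 and 30.0 CPM (-0.85 ± 0.35). All of these had lower means with both mimics. A value in the other direction came from Cdkn1c, a second inhibitor of cyclin-dependent kinases (0.78 ± 0.42). Timp3, an inhibitor of matrix proteases, had 9.23, 39.3 and 6.39 CPM, against 17.0, 15.9 and 17.5 CPM, so that replicate 2 alone lay above the miR-455 libraries. Of 17 reported targets of miR-455, which both groups received, none was called by edgeR, DESeq2 or limma voom, 3 had an unadjusted p under 0.05 and the median was -0.11.

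The effect of miR-222 was also measured in 3 other backgrounds that share no library with this one: on top of the control mimic under doxorubicin (565 genes called, 3.95%: 227 higher, 1.59%, and 338 lower, 2.36%), on top of miR-455 without doxorubicin (107, 0.748%: 45 higher, 0.315%, and 62 lower, 0.433%) and on top of the control mimic without doxorubicin (1283, 8.97%: 644 higher, 4.50%, and 639 lower, 4.47%). Leaving out 1 library moved these counts within 263 to 532, 26 to 121 and 300 to 1644. The libraries of some of these groups were uneven in their share of mitochondrially encoded transcripts. Replicates 1, 2 and 3 of the control mimic under doxorubicin had 38.2%, 8.83% and 16.0%, and replicate 1 had 11469 genes with at least 10 counts. Without doxorubicin the shares were 8.16%, 6.82% and 24.9% with both mimics and 20.3%, 13.5% and 9.11% with the control mimic. Their part in the results was not tested. All 133 genes that were lower here had a negative log2 fold change on top of the control mimic under doxorubicin, against 50.1% of all genes. Of them 129 were negative without doxorubicin on top of miR-455 (all genes 49.9%) and 117 on top of the control mimic (47.4%). Called as lower again were 77 of the 133 under doxorubicin (57.9%, and 22.8% of the 338 lower there), 39 with miR-455 and no doxorubicin (29.3%, and 62.9% of 62) and 63 with the control mimic and no doxorubicin (47.4%, and 9.86% of 639). Of the 222 higher genes 191, 208 and 163 were positive in these backgrounds in the same order, against 49.8%, 50.1% and 52.6% of all genes. Called as higher again were 59 (26.6%, and 26.0% of 227), 23 (10.4%, and 51.1% of 45) and 44 (19.8%, and 6.83% of 644). None of the lower genes was called higher elsewhere, and 3 of the 222 higher genes were called lower with the control mimic and no doxorubicin. Across all 14303 genes, which are not independent, the log2 fold changes here had a Pearson correlation of 0.10 with those of miR-222 on the control mimic under doxorubicin, 0.39 with those on miR-455 without doxorubicin and -0.10 with those on the control mimic without doxorubicin. The 4 comparisons share no library, though they share the estimate of spread.

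**Figure D2:**
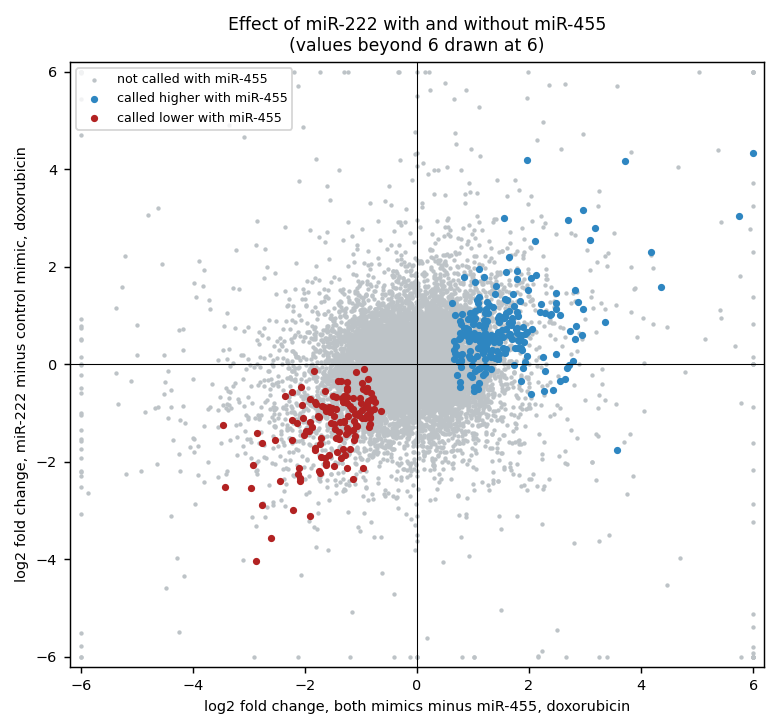
Log2 fold change of each of the 14303 genes tested for both mimics minus miR-455 (x) and for miR-222 minus the control mimic (y), both with doxorubicin and with no library in common. All 133 genes called lower with both mimics than with miR-455 (red) lie below 0 on the y axis, and 191 of the 222 called higher with both mimics (blue) lie above 0. In the legend, "with miR-455" stands for the comparison of both mimics with miR-455.

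In all 4 backgrounds 27 genes were lower (0.189% of those tested) and 5 higher (0.0350%). The count of lower genes was 9 without replicate 1 of both mimics without doxorubicin, and 11 and 10 without replicates 1 and 3 of miR-455 without doxorubicin. The count of higher genes moved between 1 and 10 with single libraries left out. With doxorubicin, it was 1 without replicate 1, 2 or 3 of miR-455, replicate 2 or 3 of miR-222 or replicate 3 of both mimics, 2 without replicate 1 of miR-222, and 8, 2 and 3 without replicates 1, 2 and 3 of the control mimic. Without doxorubicin, it was 1, 3 and 10 without replicates 1, 2 and 3 of both mimics, 1 without replicate 1 or 3 of miR-455, 1 and 2 without replicates 1 and 2 of miR-222, and 2 without replicate 2 of the control mimic. The 27 included the 3 targets Adipor1, Hipk2 and Hipk1. Where the same gene is named below, its log2 fold changes are given in the order of this comparison, miR-222 on the control mimic under doxorubicin, and then both comparisons without doxorubicin, first on miR-455 and last on the control mimic. Of the 27, Ccnd1, Mrpl36, Cdc16, Vapb, Hccs, Arf4, Pdia6, Snapin, Ggta1, Thbs2, Dkk3, Slc39a9, Adipor1, Hipk1 and LOC691807 lie beyond the 12 that the naming rule takes from this set, though other parts of the rule name some of them; the rest of these were singled out after their values were seen.

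Serpinf1, a secreted serpin also called pigment epithelium-derived factor, had 53.1, 44.3 and 49.6 CPM with both mimics, against 162, 177 and 155 CPM with miR-455 (edgeR adjusted p = 2.54e-05), and its log2 fold changes were -1.75, -2.19, -1.79 and -1.36. Nid1, the basement membrane linker nidogen, had 448, 310.0 and 404 CPM, against 982, 926 and 889 CPM, and log2 fold changes of -1.27, -1.42, -1.83 and -1.61. Both genes were called in each background. Col4a4, a chain of basement membrane collagen, had 201, 238 and 161 CPM, against 413, 382 and 373 CPM, and log2 fold changes of -0.96, -2.13, -1.93 and -2.32; without replicate 3 of both mimics its edgeR adjusted p here was 0.0508. Thbs2, a matrix thrombospondin, gave -1.10, -1.25, -1.15 and -1.75, and Dkk3 -2.45, -2.40, -1.60 and -0.91.

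Emp1, a small protein with several membrane spans, had 161, 173 and 160.2 CPM with both mimics, against 421, 445 and 426 CPM with miR-455, and log2 fold changes of -1.39, -1.52, -1.26 and -1.82. Ackr4 gave -2.97, -2.55, -2.88 and -3.09, and Cmtm6, a membrane protein that in human cells stabilises PD-L1, -1.28, -1.87, -1.20 and -1.78. Ackr4 thus fell by more than 2 log2 units in every background. Arf4, a small GTPase of the Golgi, had 155, 76.9 and 116 CPM, against 361, 393 and 392 CPM, and log2 fold changes of -1.72, -1.90, -1.14 and -1.05. Vapb, which ties the endoplasmic reticulum to other membranes, had 15.0, 8.46 and 16.3 CPM, against 37.4, 40.9 and 38.9 CPM (-1.56 ± 0.25). Snapin, a partner of SNARE proteins, had 25.3, 14.7 and 27.4 CPM, against 63.7, 63.8 and 61.0 CPM (-1.48 ± 0.27), and the zinc transporter Slc39a9 23.9, 23.8 and 23.7 CPM, against 44.0, 38.0 and 40.1 CPM (-0.78 ± 0.17). The 2 groups of libraries did not overlap for these genes, as for all 133 called lower genes and 19.8% of all genes tested. Slc39a9 was not called without replicate 2 of both mimics (edgeR adjusted p = 0.0568). The set further held Plekhb2 (-1.15 ± 0.23) and Ggta1, a galactosyltransferase (-1.10 ± 0.21).

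Ccnd1, the cyclin that drives entry into S phase, had 176, 106 and 131 CPM with both mimics, against 526, 497 and 532 CPM with miR-455, a 3.76-fold decrease (edgeR adjusted p = 0.000148). In the other backgrounds the log2 fold changes of Ccnd1 were -1.18, -1.02 and -0.99. Cdc16, a subunit of the anaphase-promoting complex, had 22.7, 25.9 and 26.1 CPM, against 50.1, 49.0 and 49.7 CPM (a decrease of 1.99-fold), and Pole4, a subunit of DNA polymerase epsilon, 14.4, 6.59 and 13.1 CPM, against 33.7, 27.7 and 32.2 CPM (-1.45 ± 0.26). Hccs, the enzyme that attaches heme to cytochrome c, had 12.1, 13.1 and 10.1 CPM, against 44.4, 46.7 and 41.2 CPM, with a log2 fold change of -1.91 ± 0.22 here and of -3.12 and -1.47 on the control mimic, with and without doxorubicin. Scd2, a desaturase that makes monounsaturated fatty acids, had 164, 136 and 129 CPM, against 529.7, 502 and 482 CPM, with log2 fold changes of -1.82, -1.76, -1.45 and -1.77. The libraries of the groups did not overlap for Ccnd1, Hccs and Scd2, as for all 133 called lower genes and 19.8% of all genes tested. Pdia6, a folding enzyme of the endoplasmic reticulum, had 192, 117 and 159 CPM, against 392, 415 and 394 CPM (-1.36 ± 0.26). The last members were AABR07007068.1, LOC691807 and RGD1310352 (current symbol C10h5orf15), with log2 fold changes here of -1.62 ± 0.31, -2.88 ± 0.38 and -1.63 ± 0.15.

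**Figure D3:**
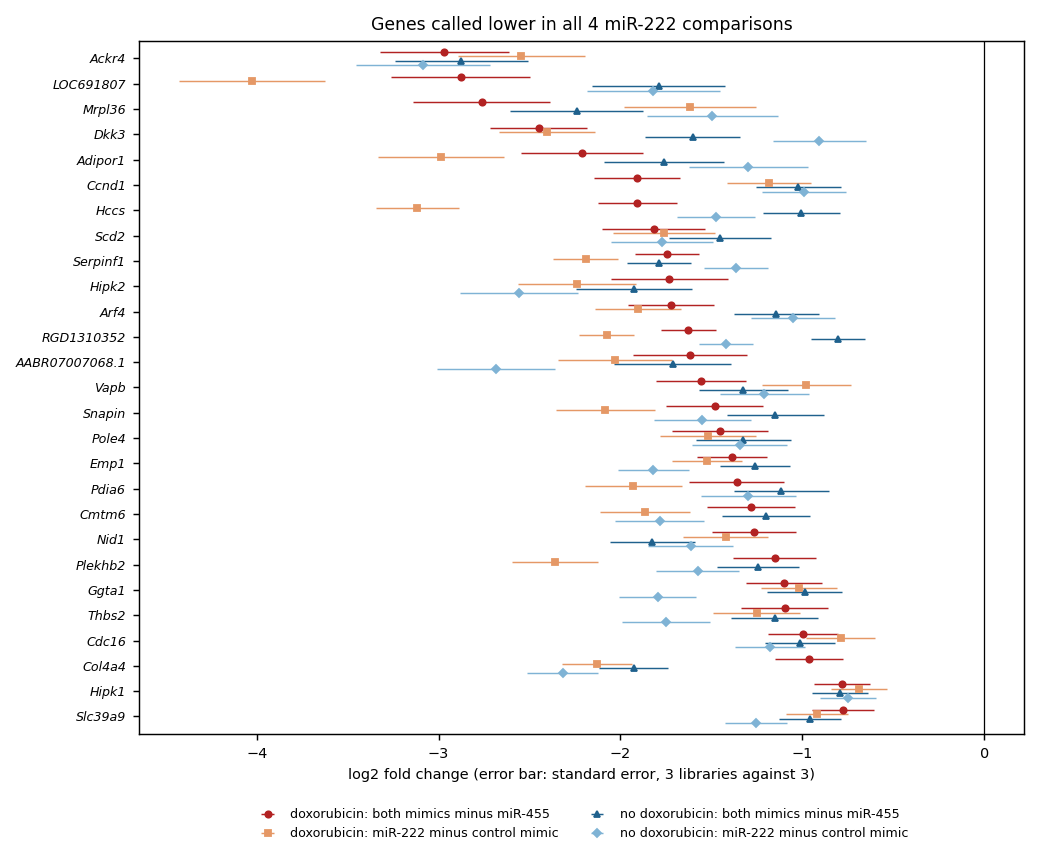
Log2 fold change with its standard error for the 27 genes called lower in all 4 comparisons of miR-222, each from 3 libraries against 3; red marks the comparison with miR-455 under doxorubicin. All values lie below 0, and Ackr4 is among the lowest in each background while Hipk1 stays between -0.79 and -0.69.

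The 5 genes higher in all 4 backgrounds included Igfbp5, RGD1562136 (current symbol Macir), Kcnv2 and Arl6. Igfbp5, which binds insulin-like growth factors outside the cell, had 46.8, 109.7 and 47.4 CPM with both mimics, against 6.42, 8.18 and 7.94 CPM with miR-455, and was 9.04-fold higher (edgeR adjusted p = 0.00276). Its log2 fold changes in the 4 backgrounds were 3.18, 2.78, 3.61 and 4.07, and it stayed called under all 15 alternatives of this comparison. RGD1562136, Kcnv2 and Arl6 were each called in 6 of the 15 alternatives, and none of these 3 was called without replicate 2 of both mimics or without replicate 3. Kcnv2, a potassium channel subunit, had 6.15, 9.58 and 7.26 CPM, against 2.10, 1.55 and 2.23 CPM (1.96 ± 0.52), and Arl6, a GTPase of the primary cilium, 14.4, 12.2 and 16.3 CPM, against 5.08, 7.53 and 5.71 CPM (1.23 ± 0.31). RGD1562136 gave 0.90 ± 0.23.

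Chosen in the same way, the largest increase was that of Mstn, encoding myostatin, a TGF-beta family inhibitor of muscle growth. It had 4.53, 12.8 and 5.68 CPM with both mimics, against 0.0513, 0.249 and 0.109 CPM with miR-455, from 409 counts over 3 libraries and 8 counts. The log2 fold change of 5.75 ± 0.94 rests on those few counts in the miR-455 libraries (edgeR adjusted p = 0.00246). Mstn was also called higher with miR-222 on the control mimic, with doxorubicin (3.04 ± 0.84) and without it (4.07 ± 0.86), but not on miR-455 without doxorubicin (2.08 ± 0.76). The other 19 tested members of the TGF-beta list were not called, and the median of the list was -0.51.

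Both subunits of soluble guanylate cyclase, the enzyme that senses nitric oxide and makes cyclic GMP, were higher. Gucy1b1 had 12.1, 45.0 and 13.2 CPM with both mimics, against 3.39, 2.89 and 3.70 CPM with miR-455 (2.81 ± 0.47, edgeR adjusted p = 0.00276), and Gucy1a1 had 7.69, 48.5 and 15.2 CPM, against 3.59, 3.74 and 1.79 CPM (2.96 ± 0.65, edgeR adjusted p = 0.0174). In both, replicate 2 was by far the highest. Without it Gucy1b1 stayed called (1.92) while Gucy1a1 did not (1.90, edgeR adjusted p = 0.176). Pcp4l1 had 49.5, 122 and 51.0 CPM, against 10.5, 9.42 and 10.4 CPM (2.88 ± 0.39), and Colgalt2, an enzyme that adds galactose to collagen, 4.02, 7.09 and 4.63 CPM, against 0.770, 0.548 and 0.707 CPM (2.95 ± 0.54). These last 2 genes stayed called under all 15 alternatives.

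Of the remaining large increases, Slc1a1, a glutamate and cysteine transporter, had 23.7, 11.1 and 28.7 CPM, against 1.69, 3.39 and 2.34 CPM (3.09 ± 0.81), and here replicate 2 was the lowest of the 3 libraries with both mimics. Slc1a1 was called in 8 of the 15 alternatives, and neither without replicate 2 (edgeR adjusted p = 0.0659) nor without replicate 3 (0.120). Palmd (5.81, 43.4 and 15.0 CPM, against 1.23, 1.15 and 1.14 CPM), Epb41l4b (29.2, 106 and 42.4 CPM, against 10.7, 6.23 and 8.05 CPM) and Plppr5 (8.25, 23.7 and 14.8 CPM, against 1.75, 2.39 and 2.88 CPM) were highest in replicate 2, and Palmd was not called without it (edgeR adjusted p = 0.0797). Cmya5, a large protein of the sarcomere's edge, had 11.7, 82.7 and 8.61 CPM, against 5.24, 4.44 and 4.73 CPM, and its log2 fold change was 1.08 without replicate 2 (edgeR adjusted p = 0.482), against 2.83 with it.

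Of 17 tested genes that heart muscle raises under stress, 2 were lower and none higher, 11.8% against 0.930% of all genes called lower; the counts of the lists that follow are likewise to be read against 1.55% higher, 0.930% lower and 2.48% in either direction. The median was -0.29, and between -0.68 without replicate 2 of both mimics and -0.10 without replicate 3. Nppa, encoding atrial natriuretic peptide, had 12774, 6142 and 9464 CPM with both mimics, against 37395, 40701 and 38839.9 CPM with miR-455, a 4.12-fold decrease (edgeR adjusted p = 0.0281). Nppb, encoding brain natriuretic peptide, had 642, 609.5 and 505 CPM, against 2126, 2138 and 1732 CPM, a 3.41-fold decrease (edgeR adjusted p = 0.0140). Every library with both mimics lay below every library with miR-455 for both peptides, as for all 133 called lower genes and 19.8% of all genes tested. Without replicate 2 with both mimics neither passed, at -1.81 for Nppa (edgeR adjusted p = 0.176) and -1.80 for Nppb (edgeR adjusted p = 0.0597), and neither passed without replicate 3. Nppa was called in 9 and Nppb in 11 of the 15 alternatives. Under doxorubicin Nppa averaged 9460.2 ± 3316 CPM in both-mimic cells, 11832 ± 2625 CPM in miR-222 cells, 38979 ± 1657 CPM in miR-455 cells and 25412 ± 5994 CPM in control mimic cells (SD, n = 3 each). Nppb averaged 586 ± 71.5 CPM in both-mimic cells, 354 ± 109 CPM in miR-222 cells, 1999 ± 231 CPM in miR-455 cells and 739.9 ± 266 CPM in control mimic cells. Both peptides had their highest mean of these 4 groups in miR-455 cells. Xirp2, an actin-binding repeat protein of the same list, had 32.7, 1065 and 43.0 CPM, against 29.4, 22.1 and 17.2 CPM, and did not pass (edgeR adjusted p = 0.123).

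Of 23 sarcomere genes 2 were higher and 2 lower, with a median of -0.22 that lay between -0.62 without replicate 2 of both mimics and 0.02 without replicate 3. Ldb3, a protein of the Z-disc, had 94.2, 131 and 68.0 CPM with both mimics, against 301, 291 and 281 CPM with miR-455 (-1.57 ± 0.26, edgeR adjusted p = 0.00276). Myl2, the ventricular regulatory light chain, had 2104, 2517 and 1792 CPM, against 4096, 4355 and 4277 CPM (-0.99 ± 0.22). Both remained called without replicate 2, but Myl2 was not called without replicate 3 (edgeR adjusted p = 0.0861) and was called in 9 of the 15 alternatives. In the other direction, Myl7, the atrial light chain, had 106, 155 and 115 CPM, against 62.7, 70.5 and 67.4 CPM (0.90 ± 0.22), and Myom1, which crosslinks myosin at the M-band, 101, 489.6 and 115 CPM, against 59.2, 58.0 and 55.1 CPM (2.03 ± 0.45). Neither increase was called without replicate 2. The myosin heavy chains Myh6 (6898, 20479 and 6126 CPM, against 6875, 6153 and 6319 CPM) and Myh7 (922, 1535 and 869 CPM, against 2752, 2152 and 2273 CPM) did not pass, and since they are near-identical neighbours their reads may have been split between them. EdgeR called none of 27 genes of calcium handling and ion channels (median 0.43, or 0.03 without replicate 2 of both mimics), where 9 had an unadjusted p under 0.05, DESeq2 called 4 higher and 1 lower and limma voom none. It called none of 20 cardiac transcription factors (median -0.22), where 4 had an unadjusted p under 0.05, DESeq2 called 1 higher and limma voom none. The summed cardiomyocyte markers, highest in replicate 2, are given above, and their part in these results was not tested.

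**Figure D4:**
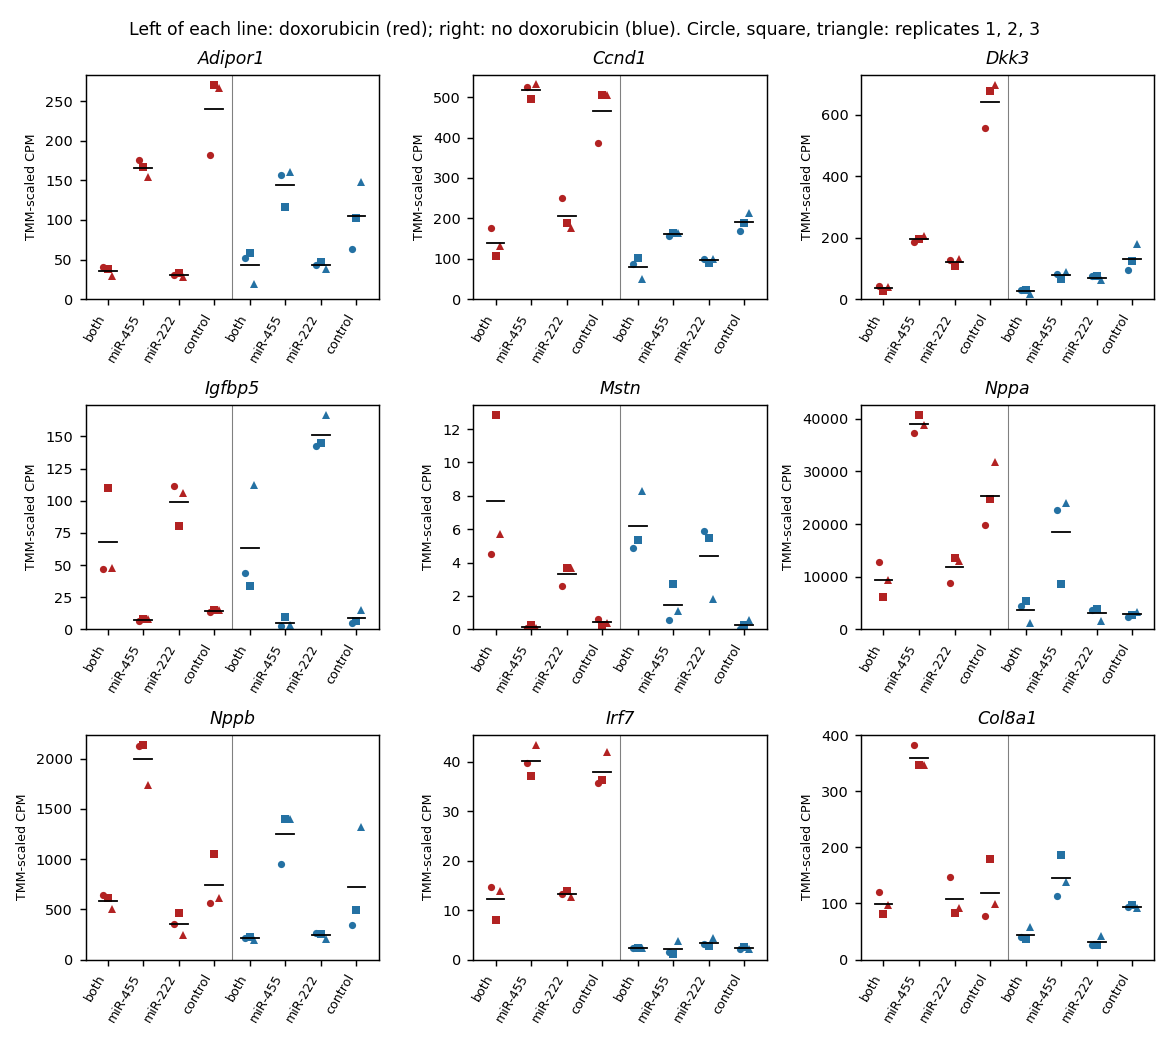
TMM-scaled CPM of 9 genes in all 24 libraries, 3 for each of the 8 groups, with doxorubicin in red and without it in blue; marks show replicates and black lines the means. Adipor1, Ccnd1 and Dkk3 are lower and Igfbp5 is higher with miR-222 in every background, while Nppa is highest with miR-455 under doxorubicin, at 37395 to 40701 CPM.

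Matrix genes had mostly negative log2 fold changes. Of 31 tested, 3 were lower by edgeR (8 by DESeq2, 8 by limma voom, and 7 by edgeR without replicate 1 of both mimics) and none higher, the median was -0.50 and 25 members had a negative log2 fold change. Col8a1, a short-chain collagen of vessels and injured heart, had 119.6, 81.9 and 97.7 CPM with both mimics, against 382, 347 and 347 CPM with miR-455, a 3.60-fold decrease (edgeR adjusted p = 0.00250). Under doxorubicin it had 147, 83.7 and 91.1 CPM with miR-222 and 77.2, 178 and 99.8 CPM with the control mimic, so the miR-455 libraries stood above the other 3 groups. Nid1 and Thbs2 (58.2, 43.9 and 59.8 CPM, against 118, 110.4 and 118 CPM) were the other lower members, and Thbs2 was not called without replicate 2 (edgeR adjusted p = 0.0982). Among fibroblast markers Thy1, a surface glycoprotein, was lower (7.44, 4.60 and 2.58 CPM, against 20.4, 22.5 and 19.3 CPM) and Dcn, the proteoglycan decorin, higher (168, 228 and 219 CPM, against 94.7, 93.8 and 84.1 CPM). The other 8 of 10 fibroblast markers were not called, and without replicate 2 none was. The summed fibroblast markers were lowest in replicate 2 with both mimics, as given above, and their part in the matrix values was not tested.

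Smooth muscle markers had 2 of 9 tested members higher. Acta2, smooth muscle actin, had 517, 3041 and 606 CPM with both mimics, against 222 ± 18.8 CPM with miR-455 (mean ± SD, n = 3; log2 fold change 2.65 ± 0.69), and Abcc9, a subunit of potassium channels gated by ATP, 233, 656 and 279.8 CPM, against 132, 111 and 107 CPM (1.74 ± 0.33). Replicate 2 was several times higher than the other libraries for Acta2, and neither gene was called without it (edgeR adjusted p = 0.474 for Acta2 and 0.0540 for Abcc9). Summed over the list without TMM factors, smooth muscle markers were at 1887, 4305 and 1715 CPM, against 1855, 1734 and 1507 CPM. The sum was highest in replicate 2 with both mimics, and whether it bears on these genes was not tested. Of 8 cardiomyocyte markers Myl2 alone was lower, and none of 7 endothelial, 8 macrophage, 8 epicardial and 2 red cell markers was called by edgeR, DESeq2 or limma voom (1, 1, 0 and 0 at an unadjusted p under 0.05).

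Genes induced early after a stimulus had the lowest median of the lists with 5 or more tested members, -1.11, yet 1 of 26 passed. That gene, by edgeR, was Dusp6. DESeq2 called 3 lower and limma voom 1, and 8 had an unadjusted p under 0.05. In all, 23 of the 26 had a negative log2 fold change, and for 19 the libraries with both mimics lay below those with miR-455, against 19.8% of all genes. Egr1, a zinc finger factor induced within minutes, had 47.3, 25.0 and 36.4 CPM, against 91.8, 96.9 and 87.0 CPM (edgeR adjusted p = 0.174). Klf6 had 6.45, 3.17 and 5.92 CPM, against 14.8, 13.5 and 10.6 CPM (edgeR adjusted p = 0.0935). In the background of the control mimic under doxorubicin the median of this list was -0.32.

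Interferon-stimulated genes were called at about the share of all genes. Among 41 of them 1 was lower and none higher (2.44%, against 2.48% of all genes), with a median of -0.50. That gene was Irf7, the factor that amplifies type I interferon, with 14.7, 8.09 and 13.8 CPM with both mimics, against 39.8, 37.2 and 43.3 CPM with miR-455 (-1.72 ± 0.32, edgeR adjusted p = 0.00625). Under doxorubicin it was also lower with miR-222 than with the control mimic (13.2, 13.9 and 12.6 CPM, against 35.7, 36.3 and 42.0 CPM; edgeR adjusted p = 0.00859). Without doxorubicin it stayed at 2.27 to 2.33 CPM with both mimics and 1.21 to 3.73 CPM with miR-455. The difference between its effects with and without doxorubicin was -1.82 ± 0.46 and did not pass (edgeR adjusted p = 0.622). Without doxorubicin the median of the 41 genes was 1.35 on top of miR-455, where 4 were higher, against 0.315% of all genes. On the control mimic it was 1.24, where 15 were higher, against 4.50% of all genes. Rsad2, an antiviral enzyme, had a positive value that did not pass (1.38 ± 0.52). Of 24 NF-kB targets and cytokines 1 was called (4.17%). Tnfaip3, an inhibitor of NF-kB, was lower (2.82, 1.74 and 2.93 CPM, against 8.01, 7.98 and 5.17 CPM), and not without replicate 2 (edgeR adjusted p = 0.151). EdgeR called none of 18 antigen presentation genes, which had a median of -0.50; 2 had an unadjusted p under 0.05, DESeq2 called 1 lower and limma voom none.

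Among p53 targets, apoptosis regulators and DNA repair genes edgeR called 1 gene. Of 33 p53 targets (3.03%, against 2.48% of all genes) Ccng1, a cyclin that p53 induces, was higher, with 2138, 5092 and 2665 CPM, against 1110.4, 1059 and 986 CPM (1.65 ± 0.33), though not without replicate 2 (edgeR adjusted p = 0.0707). The median of the list was -0.09, and 7 members had an unadjusted p under 0.05. DESeq2 called 2 p53 targets in each direction and limma voom 1 in each. Cdkn1a, the cell cycle inhibitor that p53 induces, had 619.8, 155 and 332 CPM, against 503, 499 and 488 CPM, and Mdm2, the ligase that degrades p53, 190.3, 564 and 304 CPM, against 240.4, 258 and 236 CPM. In both, the libraries with both mimics fell on either side of the miR-455 libraries. EdgeR called none of 24 apoptosis regulators (median -0.24), where 5 had an unadjusted p under 0.05 and DESeq2 called 1. It called none of 37 DNA repair genes (median 0.16), where DESeq2 called 1 in each direction and 6 had an unadjusted p under 0.05. By limma voom the counts for apoptosis and DNA repair were 0.

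The cell cycle lists held 3 genes called by edgeR. Among 15 inhibitors and G1 cyclins (13.3% called, against 2.48% of all genes) Ccnd1 and its partner kinase Cdk6 were lower, Cdk6 with 3.89, 4.48 and 1.11 CPM, against 13.6, 9.67 and 10.6 CPM (-1.83 ± 0.48); Cdk6 was not called without replicate 2 (edgeR adjusted p = 0.0683). Of 32 genes of the cell cycle and mitosis 9 had an unadjusted p under 0.05, DESeq2 called 4 higher and limma voom none. By edgeR 1 was higher (3.12% called), with a list median of 0.58 that became -0.02 without replicate 2 of both mimics. That gene was the mitotic kinase Cdk1, with 2.44, 19.6 and 3.69 CPM, against 1.23, 1.10 and 2.01 CPM, and its log2 fold change of 2.56 became 1.07 without replicate 2 (edgeR adjusted p = 0.571). EdgeR called none of 38 DNA replication genes (median -0.05; 5 at an unadjusted p under 0.05, 1 lower by DESeq2, none by limma voom).

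The list of ferroptosis and iron handling held 3 higher genes of 18 and none lower, 16.7% against 1.55% of all genes called higher. Its median was 0.12, and -0.05 without replicate 2 of both mimics. Slc40a1, ferroportin, the exporter that releases iron from cells, had 41.0, 32.5 and 45.7 CPM with both mimics, against 9.04, 9.42 and 7.18 CPM with miR-455, a 4.65-fold increase (edgeR adjusted p = 0.00301). Alox15, a lipoxygenase that oxidises membrane lipids, had 28.8, 13.9 and 29.7 CPM, against 3.08, 2.34 and 3.86 CPM (2.96 ± 0.71). Slc40a1 stayed called under all 15 alternatives. Alox15 stayed called in 10, and passed without replicate 2 but not without replicate 3 of both mimics (edgeR adjusted p = 0.0826). Acsl4, which loads membranes with polyunsaturated fatty acids, had 73.3, 199 and 115 CPM, against 48.4, 50.2 and 47.6 CPM (1.40 ± 0.31), and was not called without replicate 2 (edgeR adjusted p = 0.175). The members thus included an iron exporter and enzymes of lipid oxidation and loading.

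Me1, the cytosolic malic enzyme that makes NADPH, had 398, 478 and 479 CPM with both mimics, against 206, 196 and 189.7 CPM with miR-455, a 2.29-fold increase (edgeR adjusted p = 0.00178), and stayed called under all 15 alternatives. It stands in the lists of sterol and fatty acid synthesis (27 tested, 2 higher, 1 lower, median -0.38) and of NRF2 targets (22 tested, 1 higher, median 0.01). Sc5d, an enzyme of cholesterol synthesis, was the other higher gene (0.68 ± 0.18), and Scd2 the lower one. Sc5d was not called without replicate 2 (edgeR adjusted p = 0.0941). Among 41 nuclear genes of the respiratory chain Ndufs3, of complex I, was higher (1.23 ± 0.26), and among 35 genes of glycolysis and hypoxia the lactate transporter Slc16a1 was (1.25 ± 0.25); neither was called without replicate 2. EdgeR called none of 28 genes of fatty acid oxidation (4 at an unadjusted p under 0.05, 1 higher by DESeq2, 1 lower by limma voom), none of 13 mitochondrially encoded transcripts (0 by each of these) and none of 28 genes of autophagy and lysosome (4 at an unadjusted p under 0.05, 1 lower by DESeq2, 0 by limma voom).

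Of 28 genes of the ER stress list Vldlr, a lipoprotein receptor, was higher and Pdia6 lower. Vldlr had 120.1, 289 and 154 CPM with both mimics, against 47.8, 46.4 and 43.3 CPM with miR-455 (2.03 ± 0.38). Of 15 heat shock proteins Hsp90ab1 was higher, with 2186, 2702 and 2463 CPM, against 1457, 1443 and 1413 CPM (0.77 ± 0.18), and not without replicate 2 (edgeR adjusted p = 0.104). Both lists had medians near that of all genes, 0.01 and 0.11.

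**Figure D5:**
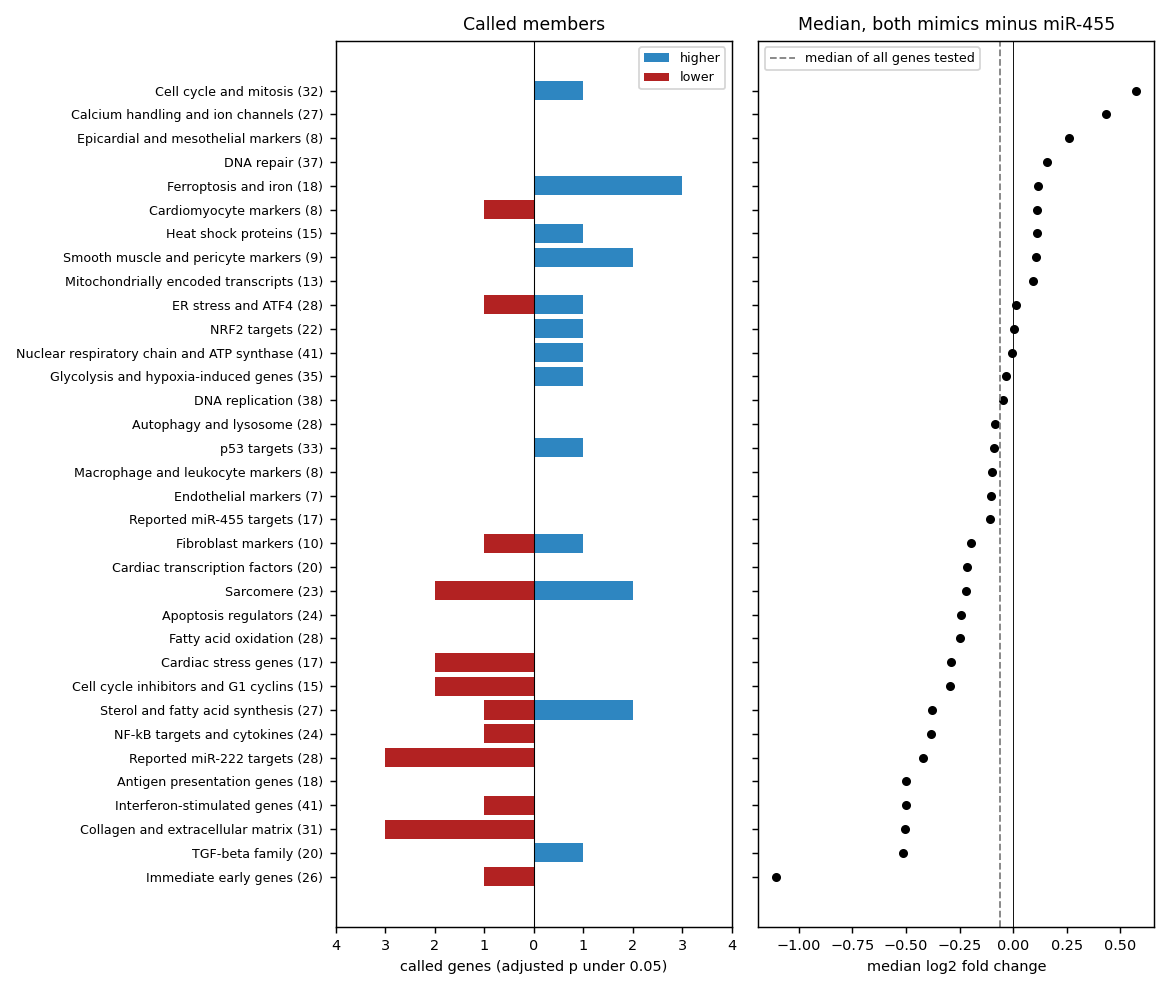
For the 34 gene lists with at least 5 tested members, the number of members called higher (blue, to the right) or lower (red, to the left) with both mimics than with miR-455 under doxorubicin, and the median log2 fold change of the list; list sizes are in brackets and the dashed line is the median of all genes tested, -0.06. No list holds more than 3 called genes in one direction, and the immediate early genes have the lowest median.

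Whether the effect of miR-222 depended on its background was tested directly. Under doxorubicin, 6 of 14303 genes (0.0419%) had an effect with miR-455 that differed from the effect with the control mimic, 5 with a positive difference (0.0350%) and 1 with a negative one (0.00699%), by edgeR's quasi-likelihood F test. At an unadjusted p under 0.05 there were 1644. No gene was called when any of the 3 miR-455 libraries was left out, nor without replicate 2 or 3 of both mimics or of miR-222. There were 2 without replicate 1 of miR-222, 24 without replicate 1 of both mimics, and 10 and 14 without replicates 2 and 3 of the control mimic. For Vnn1, an enzyme that releases cysteamine, the levels were 73.5, 90.6 and 85.6 CPM with both mimics, 60.6, 63.6 and 57.3 with miR-455, 83.0, 59.5 and 70.2 with miR-222 and 232, 259 and 195 with the control mimic. The control mimic libraries were the high ones, while the other 3 groups lay close together. For Bckdk, the kinase that restrains breakdown of branched-chain amino acids, the levels were 136, 143 and 141 CPM with both mimics, 66.8, 64.8 and 62.3 with miR-455, 221, 226 and 226 with miR-222 and 237, 238 and 241 with the control mimic. Here the miR-455 libraries were the low ones. With and without doxorubicin, the effect of adding miR-222 to miR-455 differed for no gene by edgeR, while 606 had an unadjusted p under 0.05, DESeq2 called 27 and limma voom none. Leaving out replicate 3 of miR-455 or of both mimics, without doxorubicin, gave 1 gene each.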

How the data were processed

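The deposited table covers 21767 gene symbols in 24 libraries of polyA RNA. The authors deposited expected counts per gene, and the submitters' processing notes name Salmon, DESeq2 and the build Rnor_6.0 without versions. The 7.35% of values that were not whole were rounded, and 3087 symbols had no count in any library. Library totals lay between 17311955 and 25750311.

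The analysis used edgeR 4.0.16 in R 4.3.3. After filterByExpr, 14303 genes were tested. One quasi-likelihood model with TMM factors and a mean for each of the 8 groups was fitted to all 24 libraries, contrasts were tested by F test, and a Benjamini-Hochberg adjusted p under 0.05 within a contrast made a call. CPM of single genes were computed here with the TMM factors, and marker sums without them. Standard errors come from the F statistic. The procedure was tested on simulated data that gave a gene the same spread in every group. That test did not cover the unequal spread of the libraries with both mimics and those with miR-455. The 35 gene lists hold 799 genes, 767 of them found in the table and 741 tested. Alternatives used DESeq2 1.42.0, limma 3.58.1 (voom with quality weights), other filters, scalings and fits, a replicate block and leaving out libraries.

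Genes are named by a rule. The 12 largest changes in each direction were taken from called genes with a symbol, a mean of 5 CPM or more in the group that was higher, and groups whose libraries were separate. To these come the 4 members of every list with the lowest p, the reported miR-222 targets, up to 12 genes per direction called in all 4 miR-222 comparisons, up to 4 per direction for each difference between effects, and Cdkn1b, Cdkn1c, Hipk1, Hmbox1, Ets1, Timp3, Nppa, Nppb, Myh6, Myh7, Cdkn1a and Mdm2. The choice among them was made with the values in view, and a few that the rule names are left unreported. Members, lists and tests were chosen with earlier results of these data known. A planned search for seed matches in messages was not run, since no transcript sequences were used here. The RefSeq gene table supplied current symbols.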

Additional observations from a re-analysis of the deposited data

Results flagged for a closer look

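Under doxorubicin the effect of adding miR-222 differed between the background with miR-455 and that with the control mimic for 6 genes, by an interaction contrast in edgeR's quasi-likelihood F test. Each gene's value below is the log2 effect with miR-455 minus that with the control mimic, with its SE and 3 libraries in each of 4 groups.

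Vnn1 had a difference of 2.15 ± 0.33 (edgeR adjusted p = 0.0173), from an effect of 0.46 with miR-455 and -1.69 with the control mimic. Bckdk had 1.20 ± 0.19 (edgeR adjusted p = 0.0173), from 1.11 with miR-455 and -0.09 with the control mimic. Tmem183a had 1.48 ± 0.25 (edgeR adjusted p = 0.0288), from 1.01 and -0.48 in the same order, which also holds for the genes that follow. Gca, a calcium-binding protein, had 3.27 ± 0.56 (edgeR adjusted p = 0.0288), from -0.04 and -3.30. Its levels were 3.38, 4.11 and 5.92 CPM with both mimics, 5.13, 4.54 and 4.08 with miR-455, 3.12, 4.39 and 3.54 with miR-222 and 60.2, 22.0 and 27.2 with the control mimic. Sqor, the mitochondrial enzyme that oxidises hydrogen sulfide, had 2.29 ± 0.41 (edgeR adjusted p = 0.0414), from 2.48 and 0.20; it lies outside the naming rule. Its levels were 22.4, 47.9 and 30.5 CPM with both mimics, 6.31, 7.38 and 4.30 with miR-455, 46.3, 36.1 and 34.9 with miR-222 and 34.0, 42.0 and 26.2 with the control mimic. Cmas, which activates sialic acid, was the 1 gene with a negative difference, -1.89 ± 0.30 (edgeR adjusted p = 0.0173), from -0.06 and 1.83. Over 21 alternatives the difference kept its sign for all 6 genes, and it was called in 10 for Vnn1 and Cmas, 9 for Bckdk, 8 for Tmem183a and 7 for Gca and Sqor.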

How the results depend on the processing

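The count of 355 for adding miR-222 to miR-455 under doxorubicin was 94 when only the groups compared were fitted (78 of them among the 355), 779 without the 4 libraries with the fewest genes, 1002 with DESeq2, 573 with limma voom and quality weights, and 108 to 1039 when 1 library was left out. With DESeq2 size factors it was 372, with no filter 263, with at least 1 CPM in 3 libraries 457 and with doxorubicin libraries only 260. The 4 libraries with the fewest genes included replicate 2 of both mimics under doxorubicin, which left out alone gave 158. The others were replicate 1 of the control mimic with and without doxorubicin, and replicate 3 of both mimics without it. Same-numbered libraries of both mimics and of miR-455 under doxorubicin had correlations of -0.06, 0.05 and -0.01. The miR-455 libraries differed little from each other, and whether same-numbered libraries share a culture or batch was not tested. The replicate block gave 242 calls. In the same order of fits, miR-222 against the control mimic under doxorubicin gave 76, 1211 and 1047 (263 to 532 with 1 library left out). Adding miR-222 to miR-455 without doxorubicin gave 0, 514, 400 and 18, with 22 from libraries without doxorubicin only (26 to 121), and miR-222 against the control mimic without doxorubicin gave 485, 2832, 2376 and 2008, with 548 (300 to 1644). The 6 differences between backgrounds under doxorubicin became 0 with only the groups compared, with doxorubicin libraries only and with no filter, 13 at 1 CPM, 1 with the replicate block, 35 without the 4 libraries, 189 with DESeq2 and 17 with voom (0 to 24). The count of 0 for the difference by doxorubicin became 1 without the 4 libraries and 27 with DESeq2 (0 to 1). Genes lower in all 4 comparisons, an alternative count added after the data were seen, numbered 0, 79, 55 and 9, with 5 by doxorubicin state (9 to 32), and genes higher in all 4 numbered 0, 33 and 17, with 0 by doxorubicin state, and 1 with no filter or the replicate block (1 to 10). The cause was not tested. No named gene that was called in the main fit or in an alternative had the opposite sign in the other. Changes of sign in genes called in neither were not counted. With 3 libraries a group and wide spread among those with both mimics, a gene that was not called may still differ.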
